A study of Mus musculus with 9 samples.

Results

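C2C12 myotubes of 3 genotypes were compared at day 3 of differentiation: cells with a knockdown of Fkbp5, cells with a knockdown of Fkbp4 and control cells. C2C12 cells are mouse myoblasts kept as a permanent line; withdrawal of serum growth factors makes them stop dividing and merge into multinucleate myotubes. These 3 libraries were chosen by their day, out of 9 libraries that also cover days 0 and 5, each genotype being sampled once at each day. The cultures were grown in 10% fetal bovine serum, moved at day 0 to medium with insulin, transferrin and selenium, and later given medium "with HS", as the labels put it. The method of knockdown is not given in the sources used here, nor is the treatment of the control cells beyond their name. Each value therefore rests on 1 library with no replicate check, and no knockdown was tested against the control at day 3. Ratios are log2 of knockdown over control with an exact 95% interval for the 2 read counts, which covers counting error only. A gene was compared where the larger library of the pair held at least 50 reads, and is called higher or lower where its ratio was at least 2-fold, or 1 on the log2 scale. Both knockdowns were set against the same control library, so an odd value in that library enters both comparisons.

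Fkbp4 and Fkbp5 are immunophilins, proteins with a peptidyl-prolyl isomerase domain that binds FK506 and a repeat domain that docks onto the chaperone Hsp90. Both sit in steroid receptor complexes, where Fkbp5 lowers hormone binding and Fkbp4 favours it, and Fkbp5 is itself induced by glucocorticoids. Myoblasts that differentiate switch on Myog, raise the CDK inhibitor Cdkn1a, leave the cycle, fuse through Mymk and Mymx, and then build sarcomeres. The title of the series ties Fkbp5 to this program through the G1 kinase Cdk4.

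The day 3 libraries held 5568486 reads on genes in the Fkbp4 knockdown, 4356846 in the Fkbp5 knockdown and 4260605 in the control. A gene with 0 reads may have reached 3 reads, which is 0.529 to 0.708 normalised CPM (a gene's reads scaled to a common library total, with the total corrected by its TMM factor). Mitochondrially encoded genes took 3.11%, 4.52% and 4.75% of the reads in the same order. All 3 libraries had left day 0 behind. Summed over 9 myotube markers, the level was 13295 CPM in control cells, 13397 with the Fkbp4 knockdown and 8008 with the Fkbp5 knockdown, against 587 to 926 at day 0 and 14870 to 21440 at day 5. Summed over 6 proliferation markers it was 394, 320 and 537 CPM, against 1410 to 1564 at day 0 and 235 to 373 at day 5. The Fkbp5 knockdown at day 3 thus lay nearest to day 0 of the 3 genotypes on both sums. In bulk RNA, fewer myotubes and less muscle RNA per myotube cannot be told apart. The line's own markers Myod1 (111 to 121 CPM) and Des (2637 to 3140 CPM) were present in every day 3 library. Some markers of other cells were absent: 7 of 12 adipocyte markers, 6 of 12 osteoblast and chondrocyte markers, 4 of 14 immune and endothelial markers and 2 of 14 neural and epithelial markers had no read at day 3. The adipocyte sum was 86.4 CPM in control cells, 53.4 with the Fkbp4 knockdown and 168 with the Fkbp5 knockdown, nearly all of it Lpl, a lipase that muscle also makes. The immune and endothelial sum was 4.72 to 4.94 CPM, the osteoblast and chondrocyte sum 87.0 to 105 CPM (mostly Sox9), and the neural and epithelial sum 142, 167 and 228 CPM (mostly Tubb3). Tubb3 itself, at 134, 162 and 221 CPM in the same order of genotypes, stood above Myod1. The part of other cells in the results below was not tested.

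Each targeted mRNA was lower in its own knockdown. Fkbp4 (chr6:128429735-128438677, mm10) stood at 143 CPM in the control (604 reads), 145 CPM in the Fkbp5 knockdown (642 reads) and 27.0 CPM in the Fkbp4 knockdown (153 reads). Its ratio in the Fkbp4 knockdown was −2.40 (interval −2.67 to −2.14), a 5.28-fold lower level. Fkbp5 (chr17:28399094-28517527) was sparse at this day in every genotype, with 31 reads in control cells, 44 with the Fkbp4 knockdown and 14 with the Fkbp5 knockdown. Its ratio of −1.21 in the Fkbp5 knockdown (interval −2.23 to −0.25) was under the read minimum of the comparison. Control cells had 20.03 CPM of Fkbp5 at day 0, 7.32 at day 3 and 14.7 at day 5, so day 3 was the day with the least Fkbp5 mRNA left to remove. Cdk4 mRNA was 377 CPM in control cells, 342 with the Fkbp4 knockdown and 315 with the Fkbp5 knockdown, ratios of −0.14 and −0.26. Of the FK506-binding proteins with enough reads, 0 of 11 were called in the Fkbp5 knockdown, and Fkbp4 itself was the 1 called of 12 in the Fkbp4 knockdown.

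**Figure D1:**
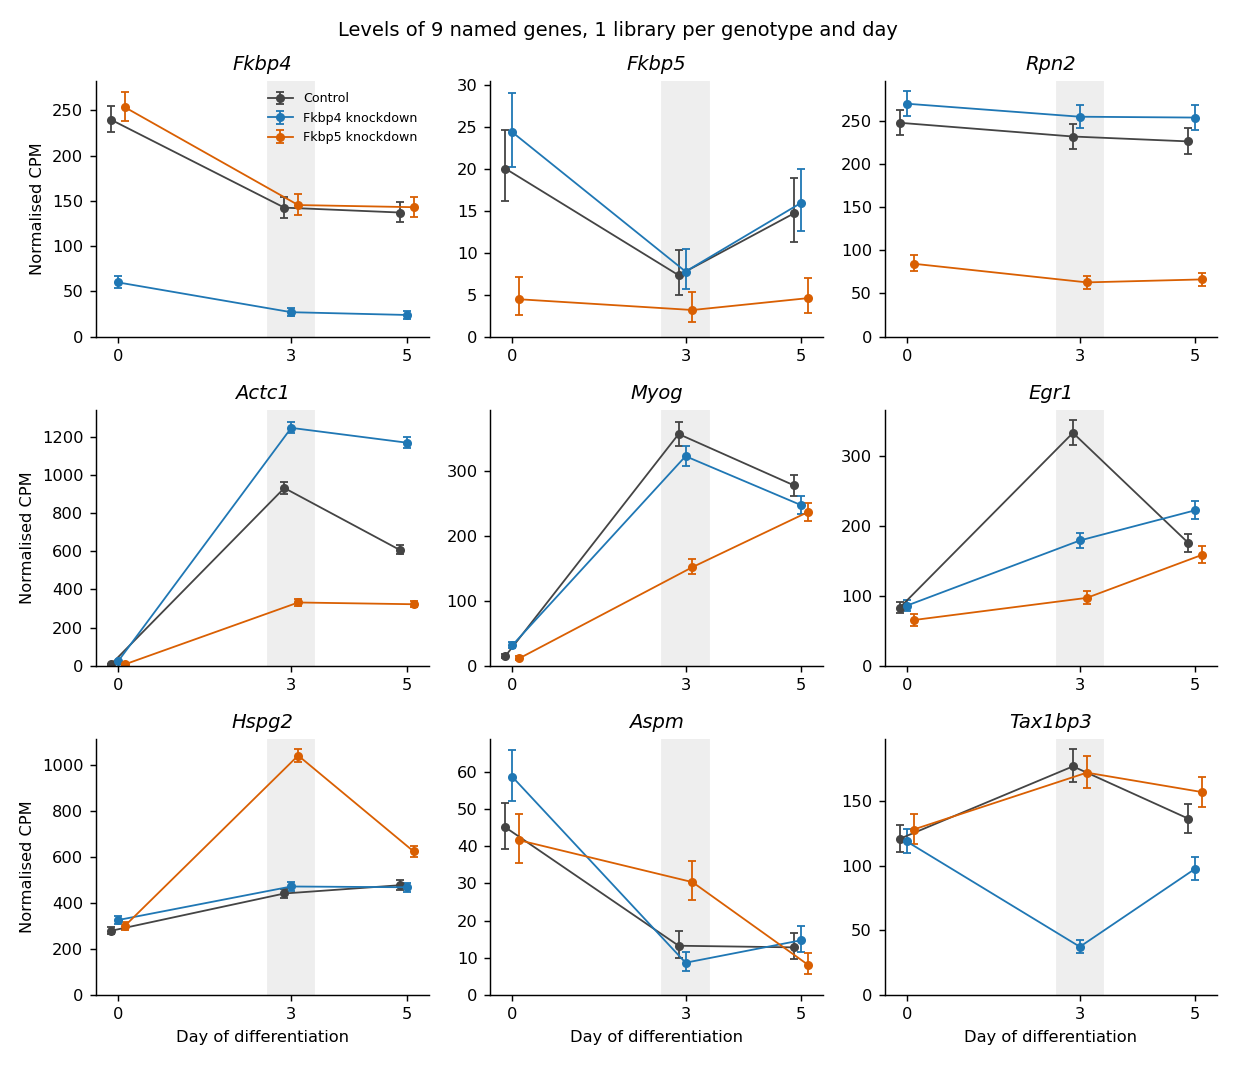
Normalised CPM (vertical axis, starting at 0) against day of differentiation for 9 genes, 1 library per point, with exact 95% Poisson intervals of the read count; day 3 is shaded. At day 3 the Fkbp5 knockdown lies below both other genotypes in Rpn2, Actc1, Myog and Egr1 and above them in Hspg2 and Aspm, while Tax1bp3 is low in the Fkbp4 knockdown.

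In the Fkbp5 knockdown most sarcomere genes stood lower at day 3, the majority by less than 2-fold. Of 9444 genes compared, 91 were called higher (0.964%) and 113 lower (1.2%), and the median ratio of all genes was 0.00. The interval lay wholly above no difference for 1696 of the 9444 genes and wholly below it for 1657, the counts against which those of each list are to be read. Actc1, the cardiac actin that embryonic muscle uses, had 3944 reads in control cells, 7066 with the Fkbp4 knockdown and 1462 with the Fkbp5 knockdown, or 931, 1246 and 331 CPM. It was 2.81-fold lower in the Fkbp5 knockdown (−1.49, interval −1.58 to −1.40). Of 41 sarcomere genes compared, 6 were called lower and 0 higher, and the interval of 31 lay wholly below no difference, with a list median of −0.58. The 6 were Actc1, Myoz2 (−1.58), a Z-disc protein, Unc45b (−1.13), a chaperone of myosin, Lmod2 (−1.12), a nucleator of actin, the embryonic light chain Myl4 (−1.10) and the fast troponin Tnnt3 (−1.06). Embryonic myosin Myh3 was 1377 CPM in control cells, 1744 with the Fkbp4 knockdown and 889 with the Fkbp5 knockdown (−0.63, interval −0.69 to −0.57). The giant proteins Ttn (0.01) and Neb (−0.06) stood at the control's level, so the list was not uniformly lower. Ratios rose with transcript length in this comparison, as given below, and these values are not adjusted for it.

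Some regulators of differentiation were lower too, while the fusion list as a whole was not. Myogenin (Myog), the factor that starts terminal differentiation, had 357 CPM in control cells, 322 with the Fkbp4 knockdown and 152 with the Fkbp5 knockdown. That is a 2.35-fold lower level (−1.23, interval −1.37 to −1.10). Of 20 myogenic transcription factors compared, Klf5 (−1.31), Myog and the RNA-binding regulator Rbm24 (−1.04) were called lower and 0 higher, with a median of −0.21, while Myod1 was at −0.12 (interval −0.30 to 0.06). Of 24 genes of myoblast fusion and membrane compared, 2 were called lower and 0 higher, but 15 had a ratio above 0 and the median was 0.09, with 11 intervals wholly above no difference and 6 wholly below. The 2 were Mymx and Cav3. The fusion peptide Mymx had 450, 482 and 169 reads in the control, the Fkbp4 knockdown and the Fkbp5 knockdown (−1.47, interval −1.74 to −1.21), and its partner Mymk had a ratio of −0.59. Cav3, the muscle caveolin, had 71, 95 and 15 reads (−2.30, interval −3.21 to −1.49). Of 25 genes of excitation-contraction coupling and the endplate, the potassium channel Kcnj2 (−1.88) and the acetylcholine receptor subunit Chrnd (−1.16) were called lower and 0 higher, with a median of −0.30. Muscle cytochrome oxidase subunit Cox6a2 (−1.35) was lower and the pyruvate dehydrogenase kinase Pdk4 (1.06) higher among 18 genes of muscle energy metabolism, whose median was 0.05. Igf2, a growth factor that C2C12 cells secrete as they differentiate, was at −1.08, though 63.1% of its 31-base words also occur in other annotated genes. It was the only 1 called of 13 genes of the insulin-like growth factor axis, of which 7 had a ratio above 0, with a median of 0.06.

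Mitotic genes were higher in the Fkbp5 knockdown, and genes of DNA replication were not. Of 53 mitosis genes compared, 50 had a ratio above 0, the interval of 39 lay wholly above no difference and 0 lay wholly below, with a median of 0.49. Only 3 were called at 2-fold: Aspm (1.20, interval 0.74 to 1.68), which organises spindle poles, Ckap2 (1.17, interval 0.89 to 1.47), a spindle protein, and Cenpf (1.09, interval 0.77 to 1.43), a kinetochore protein. Aspm had 56 reads in control cells, 49 with the Fkbp4 knockdown and 134 with the Fkbp5 knockdown. Adjusted for transcript length, as described below, Aspm (0.98) and Cenpf (0.88) were under 2-fold and Ckap2 (1.16) was not. The kinases Plk1 (0.90), Aurka (0.69) and Cdk1 (0.49) and the proliferation marker Mki67 (0.57) lay between 0 and the 2-fold line. Of 41 replication genes 0 were called, with a median of −0.13, and the replication clamp Pcna, which shares 23.3% of its words, was at −0.46. G1 regulators were mixed: of 24 compared 0 were called, with Ccnd1 at 0.70 (interval 0.48 to 0.92), Ccnd3 at 0.26, Cdk6 at −0.67 and Rb1 at −0.23. Ccnd1 shares 22.3% of its words with other genes, and summing its near copy gives 0.53. Among CDK inhibitors Cdkn1c, known as p57, had 110, 296 and 27 reads in the control, the Fkbp4 knockdown and the Fkbp5 knockdown, 4.25-fold lower in the latter (−2.09, interval −2.75 to −1.47, with 27.2% of its words shared). Cdkn1a, known as p21, was far more abundant and at −0.39.

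Matrix genes stood higher and immediate early genes lower in the same library. Of 47 extracellular matrix genes 3 were called higher and 0 lower, and the interval of 33 lay wholly above no difference, with a median of 0.37. Hspg2, which encodes the basement membrane proteoglycan perlecan, had 1865 reads in control cells, 2669 with the Fkbp4 knockdown and 4590 with the Fkbp5 knockdown, a 2.36-fold higher level (1.24, interval 1.16 to 1.32). Col27a1 (1.26) and Col12a1 (1.14) were the other two, and the basement membrane collagens Col4a1 (0.85) and Col4a2 (0.92) came close. Col12a1 changed sign between days in this knockdown, with −1.11 at day 0, 1.14 at day 3 and −0.20 at day 5, so its value is uncertain. Outside the list, 3 genes named by their rank were the heparan sulfate proteoglycan Sdc3 (1.46, interval 1.15 to 1.78), the endocytic receptor Lrp1 (1.08, interval 0.99 to 1.17) and the membrane protein Pmp22 (1.20). Of 21 immediate early genes, which answer growth signals within minutes, 4 were called lower and 0 higher, with a median of −0.49. Egr1 had 1410 reads in control cells, 1015 with the Fkbp4 knockdown and 428 with the Fkbp5 knockdown (−1.78, interval −1.94 to −1.62), and Ier2 (−1.20), Dusp4 (−1.11) and Zfp36 (−1.03) were the rest. Egr1 was also below the control in the Fkbp4 knockdown (−0.895, interval −1.01 to −0.78), where 0 of 22 immediate early genes were called and the median was −0.12.

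**Figure D2:**
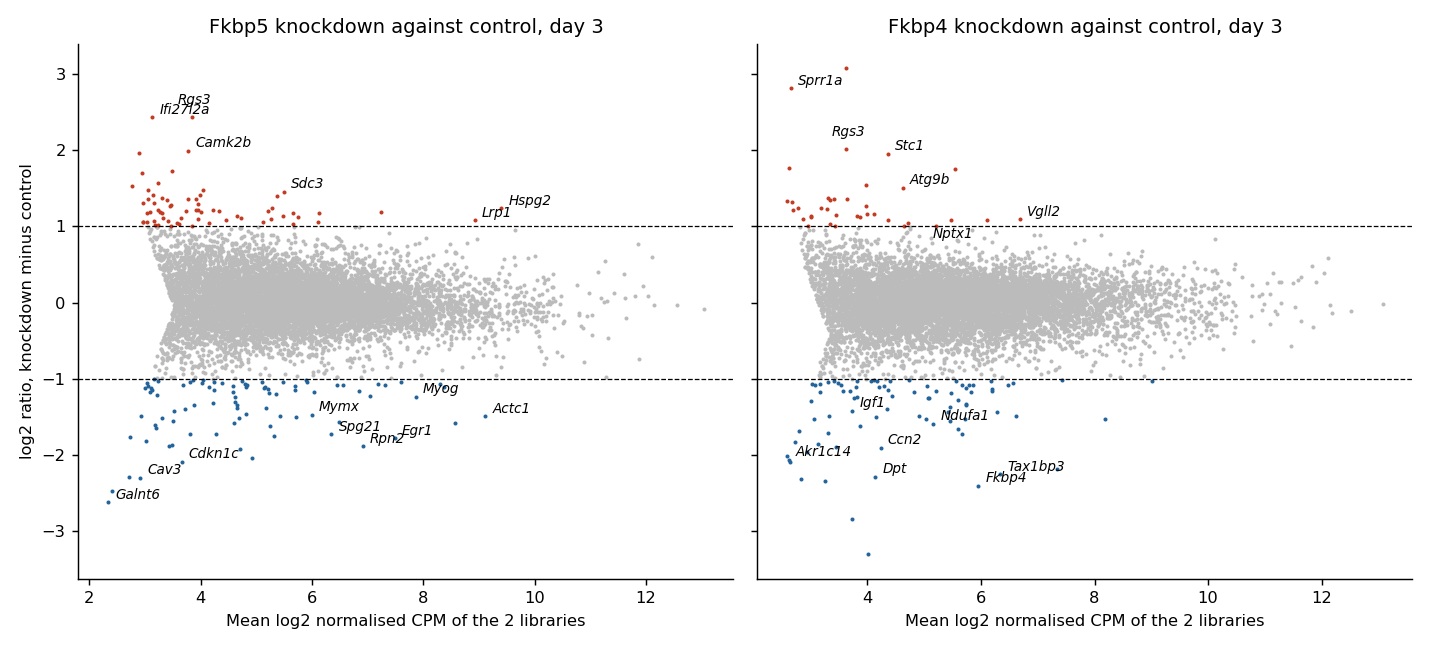
Log2 ratio of knockdown over control at day 3 (vertical axis) against the mean log2 normalised CPM of the 2 libraries, 1 point per protein-coding nuclear gene with at least 50 reads in the larger library. Red points are at least 2-fold higher (66 in the Fkbp5 and 37 in the Fkbp4 knockdown), blue points at least 2-fold lower (87 and 82), and dashed lines mark 2-fold.

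Other leading genes of the Fkbp5 knockdown were these. Rgs3, which switches off G protein signals, had 26 reads in control cells, 141 with the Fkbp4 knockdown and 147 with the Fkbp5 knockdown, ratios of 2.02 and 2.44. The control library alone was low here: Rgs3 stood at 27.7 CPM in control cells at day 0, 6.14 at day 3 and 24.4 at day 5. Ifi27l2a, an interferon-induced gene (16 against 90 reads, 2.43, interval 1.66 to 3.30), the kinase subunit Camk2b (1.99), the NAD synthesis enzyme Nmnat2 (1.96) and the phospholipid enzyme Pcyt1b (1.73) were higher. Of 14 interferon and antigen presentation genes compared, Bst2 (1.42) and the peptide transporter subunit Tap2 (1.36) were called higher and Gbp8 (−1.76, with 31.1% of its words shared) lower, with a median of 0.32. On the lower side were Rpn2 (chr2:157279017-157326319), a subunit of the oligosaccharyltransferase that N-glycosylates proteins, with 981, 1443 and 277 reads in the control, the Fkbp4 knockdown and the Fkbp5 knockdown (−1.88, interval −2.08 to −1.69), and Spg21 with 629, 740 and 198 reads (−1.73, interval −1.97 to −1.49). Galnt6, which starts mucin-type O-glycans (−2.62), the secreted Dkk3 (−2.47), Ctxn3 (−2.29) and the pyruvate carrier Mpc1 (−1.76, with 30.8% of its words shared) followed. Of 27 N-glycosylation genes only Rpn2 and the glucosyltransferase Alg10b (−1.49) were called, and Rpn1, the partner of Rpn2 in the same complex, was at −0.02.

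In the Fkbp4 knockdown the sarcomere median lay near the control and the matrix median lower. Of 9742 genes compared, 60 were called higher (0.616%) and 114 lower (1.17%), with a median over all genes of 0.01. The interval lay wholly above no difference for 1612 of the 9742 genes and wholly below it for 1750. Of 45 sarcomere genes 0 were called, with a median of 0.10, and Actc1 was at 0.42. The interval of 18 lay wholly above no difference and that of 12 wholly below. At day 0 the sarcomere median in this knockdown was 0.98 over the 25 genes with enough reads. Of 46 matrix genes 3 were called lower, namely Aspn (−1.26), Postn (−1.23) and Col12a1 (−1.03), 0 were called higher, and the interval of 29 lay wholly below no difference, with a median of −0.31. Dpt, a matrix protein that binds decorin, had 164 reads in control cells, 45 with the Fkbp4 knockdown and 136 with the Fkbp5 knockdown (−2.29, interval −2.80 to −1.80). Of 18 targets of YAP and TGF-beta, Ccn2 (154 against 55 reads, −1.91), the activin subunit Inhba (−1.83) and the smooth muscle protein Tagln (−1.48) were called lower and 0 higher, with a median of −0.27. Tagln shares 62.2% of its words with other genes, and 2 other members of the list, smooth muscle actin Acta2 and the muscle repeat protein Ankrd1, were at −0.28 and 0.54. Of 13 genes of the insulin-like growth factor axis, Igf1 (−1.42) and Igfbp7 (−1.40) were called lower, but 9 had a ratio above 0 and the median was 0.11. Of 27 antioxidant and redox genes the reductase Akr1c14 (−2.06) and the alcohol dehydrogenase Adh1 (−1.52) were called lower and 0 higher, with a median of −0.14. Of 6 chemokines and cytokines Cxcl13 (1.36) was called higher and Ccl7 (−1.16) lower, and of 17 progenitor genes Hmga1 was called higher and Cd34 (−1.03) lower, with a median of −0.01. Tax1bp3 (chr11:73177083-73183162), a small PDZ-domain protein, had 750 reads in control cells, 211 with the Fkbp4 knockdown and 760 with the Fkbp5 knockdown, a 4.76-fold lower level (−2.25, interval −2.48 to −2.03).

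Fewer genes were called higher than lower in the Fkbp4 knockdown. Sprr1a, a small proline-rich protein (10 against 94 reads, 2.81, interval 1.87 to 3.92), and the secreted hormone Stc1 (44 against 228 reads, 1.95, interval 1.48 to 2.45) led those with little shared sequence. The transcription factor Etv1 (1.77), the protease Tmprss11b (1.54), the autophagy protein Atg9b (1.51), Sema7a (1.35) and Nptx1 (1.09) followed. Vgll2, a muscle cofactor of TEAD factors, had 298, 851 and 291 reads in the control, the Fkbp4 knockdown and the Fkbp5 knockdown (1.09, interval 0.90 to 1.29), the only one called of 20 myogenic regulators. Cdkn1c was called higher (1.01, interval 0.69 to 1.34), against its low value in the Fkbp5 knockdown. Genes of cholesterol and fatty acid synthesis were shifted together by less than 2-fold: of 30 compared 0 were called, 27 had a ratio above 0 and the interval of 26 lay wholly above no difference, with a median of 0.37. Among them were Lss (0.89), which closes the sterol rings, and fatty acid synthase Fasn (0.56). Mitosis genes had a median of −0.19 with Cdca8 called lower (−1.11), but their median in this knockdown was 0.10 at day 0 and 0.515 at day 5. The 10 mitochondrially encoded genes compared had a median of −0.48 with 0 called.

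**Figure D3:**
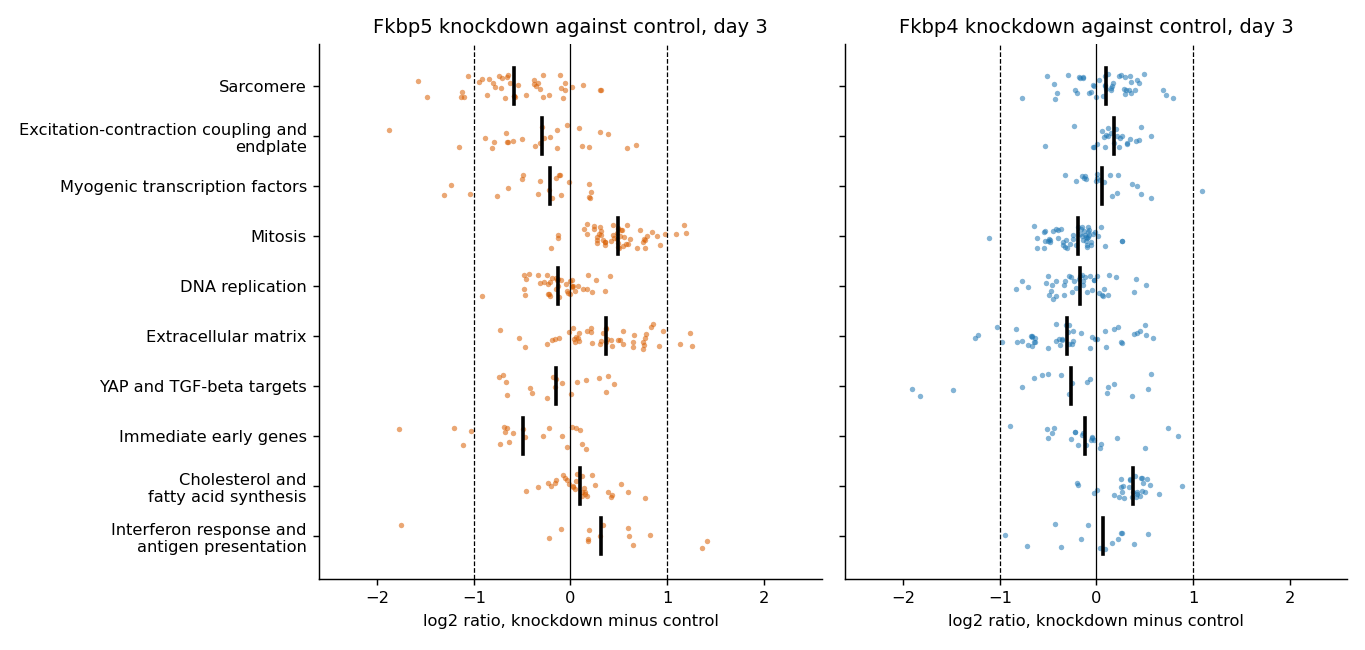
Log2 ratio of knockdown over control at day 3 (horizontal axis) for the members of 10 gene lists, 1 point per gene compared (vertical jitter has no meaning), with a black bar at the list median and dashed lines at 2-fold. In the Fkbp5 knockdown the sarcomere bar is at −0.58 and the mitosis bar at 0.49; in the Fkbp4 knockdown the cholesterol and fatty acid bar is at 0.37 and the matrix bar at −0.31.

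A short word in the 3′UTR marked the lower side of each knockdown, a different word in each. All words of 7 bases were ranked by how low their holders stood at day 3, after removing the median of genes with 3′UTRs of like length. Among 15290 words GTTCGTT was the lowest in the Fkbp5 knockdown, and among 15345 words GCTATGC was the lowest in the Fkbp4 knockdown. Since the words were picked by these ratios, their values at day 3 are a description without a test. GTTCGTT also stands in the coding part of the Fkbp5 transcript itself, starting at base 1098 of 3858, and GCTATGC in the coding part of the Fkbp4 transcript, starting at bases 646 and 838 of 2217. Of the longest coding transcripts of the genes compared, 4.84% hold GTTCGTT anywhere and 15.6% hold GCTATGC. The sites below show both targets and some holders called lower, with the word in capitals. They are on the sense strand from GENCODE release M21 transcripts (GRCm38). Apart from Rpn2, Spg21, Kcnj2, Alg10b and Inhba these genes were chosen after their values were seen. They do not follow the ranking by interval bound, in which Mapk14 was 13 and Kif26b, not shown, was 2. Of the called holders not shown, Slc1a3, Dkk3 and Serf2 were also called lower in the other knockdown, and the rest were not.
Fkbp5 coding part: ccgagatgtggtGTTCGTTgttggggaagg
Rpn2 3′UTR: gaggagatgcctGTTCGTTaaaaagagaaa
Spg21 3′UTR: caatcagttcggGTTCGTTggtcgggcaca
Wbp2 3′UTR: agaattgctcttGTTCGTTcctggtccaga
Kcnj2 3′UTR: gtttgtttgtttGTTCGTTttttttctttt
Alg10b 3′UTR: cttgaaagcattGTTCGTTatccattgctt
Mapk14 3′UTR: gagaaaactgctGTTCGTTtgtatttgtga
Fkbp4 coding part, base 646: ctcggggtgaagGCTATGCcaggcccaatg
Fkbp4 coding part, base 838: acctcaaacctaGCTATGCttttggcagtg
Ndufa1 3′UTR: tcctgttagaagGCTATGCagcatattata
Ado 3′UTR: ggagcggaatctGCTATGCttccaaataac
Inhba 3′UTR: gtaaaattgggaGCTATGCcagactgaacg
Rasa1 3′UTR: agtgatgtgtgaGCTATGCaagcaaaaacc

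Each word's holders lay below the other genes in one knockdown and near them in the other. In the Fkbp5 knockdown at day 3, 218 of 9042 genes with a 3′UTR held GTTCGTT, with a median ratio of −0.23 against 0.00 for the others, and 75.7% of them against 49.4% of the others lay below 0. Of the 87 protein-coding genes called lower, 18 held it (20.7%, against 2.41% of all genes), and of the 66 called higher 1 did (1.52%). In the Fkbp4 knockdown the same word's holders had a median of 0.00 against 0.01. GCTATGC was held by 580 of 9294 genes in the Fkbp4 knockdown, with a median of −0.12 against 0.02, and by 16 of the 82 genes called lower (19.5%, against 6.24% of all genes). Its holders had a median of 0.00 in the Fkbp5 knockdown, as the others did. Holders had longer 3′UTRs than other genes, with medians of 2821 against 1230 bases for GTTCGTT in the Fkbp5 comparison and 2773 against 1179 for GCTATGC in the Fkbp4 comparison. The shares of called genes here and of list members below were not matched for that length. Each word was also the lowest of all words at days 0 and 5 of its own knockdown, in libraries that the ranking at day 3 did not use. There GTTCGTT holders had medians of −0.38 and −0.33, and GCTATGC holders −0.07 and −0.15.

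Some holders have known roles in muscle or are abundant. Mapk14, which encodes p38 alpha, a kinase that drives myogenesis, had 319 reads in control cells, 442 with the Fkbp4 knockdown and 156 with the Fkbp5 knockdown (−1.09, interval −1.38 to −0.81). Wbp2, a WW domain-binding protein, had 648, 1038 and 229 reads (−1.56), and the actin-linked Pdlim5, also chosen after its values were seen, 888, 1190 and 442 reads (−1.07). In the Fkbp4 knockdown the complex I subunit Ndufa1 had 263 reads in the control and 117 in the knockdown (−1.59), Ado 212 and 101 (−1.49), and the Ras inhibitor Rasa1 318 and 175 (−1.28). Among list members GTTCGTT was held by 0 of 41 sarcomere genes, 2 of 53 mitosis genes and 3 of 27 N-glycosylation genes, beside 2.41% of all genes. GCTATGC was held by 1 of 30 cholesterol genes, 3 of 18 YAP and TGF-beta targets and 3 of 15 Notch and Wnt genes, beside 6.24% of all genes. Without holders the YAP and TGF-beta median in the Fkbp4 knockdown was −0.09 in place of −0.27. GCTATGC was picked by low ratios in this same comparison, so leaving out its holders tends to raise a median by construction. The part of the words in these differences was not tested.

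**Figure D4:**
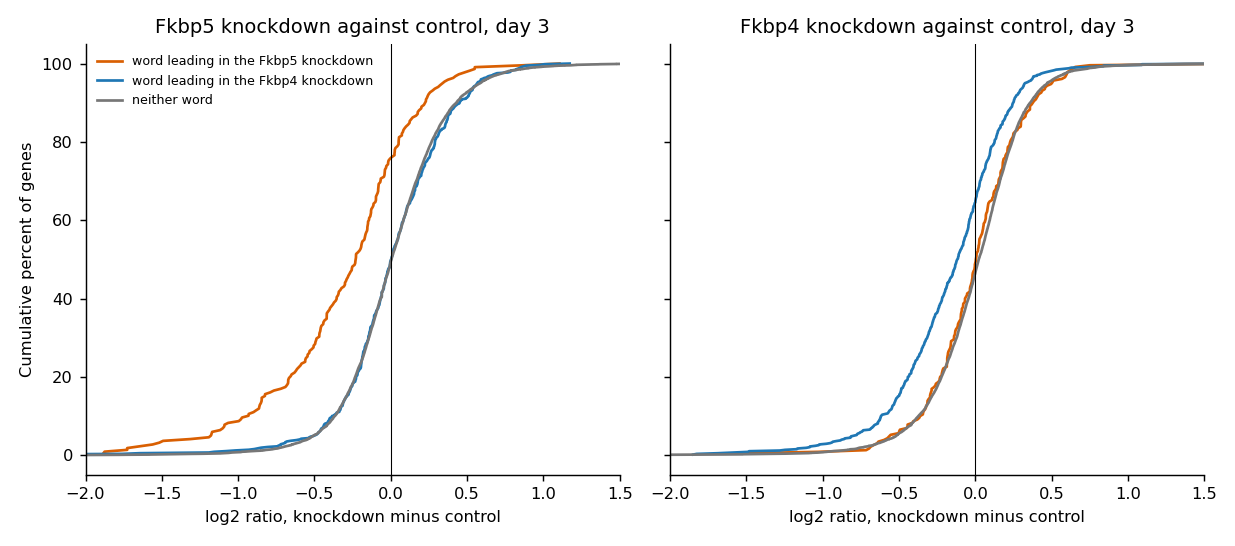
Cumulative percent of genes (vertical axis) against the log2 ratio of knockdown over control at day 3, for holders of the 3′UTR word that led in each knockdown and for genes with neither word. The orange curve lies to the left in the Fkbp5 knockdown, with a median of −0.23, and the blue curve in the Fkbp4 knockdown, with a median of −0.12.

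Most genes called at day 3 had the same direction at the other days. Of protein-coding genes lower in the Fkbp5 knockdown with enough reads, 44 of 50 were below 0 at day 0 and 66 of 78 at day 5, against 52.1% and 50.5% of all genes. For genes higher in it the counts were 31 of 47 and 45 of 53, against 47.9% and 49.5%. In the Fkbp4 knockdown they were 56 of 65 and 64 of 75 for lower genes, against 43.0% and 50.4%, and 20 of 22 and 22 of 27 for higher genes, against 57.0% and 49.6%. Rpn2 had ratios of −1.55, −1.88 and −1.77 at days 0, 3 and 5.

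Some genes had larger ratios at day 3 than at days 0 and 5, though few passed a test. The difference between the effect at day 3 and that at days 0 and 5 was tested with edgeR's quasi-likelihood test over 13372 genes. Day 3 has 1 library per genotype, so days 0 and 5 stood in for replicates of each knockdown effect, and the 2 residual degrees of freedom come from the spread between those days. The p-values measure day 3 against that spread and not against repeated cultures. The Fkbp5 knockdown library of day 5, which enters this spread, held 10.06% of its reads on mitochondrially encoded genes, against 1.78% to 5.01% in the other libraries. In the Fkbp5 knockdown 0 genes passed at an adjusted p under 0.05 (0.0% of those tested), with 884 at an unadjusted p under 0.05, and by DESeq2 5 and by limma voom 0 passed. Hmgn2 (−3.39, SE 0.44), with its shared sequence, had the lowest p of the named genes and an edgeR adjusted p of 0.212. Its ratio changed sign between days, with 1.27 at day 0, −1.918 at day 3 and 1.803 at day 5, so its value is uncertain. Egr1 had the next lowest p, with a difference of −1.54 (SE 0.21) and an edgeR adjusted p of 0.212. Hmgn2 and Egr1 were both among the 5 by DESeq2. Control cells had 82.8, 333 and 175 CPM of Egr1 at days 0, 3 and 5, and the Fkbp5 knockdown 65.2, 96.9 and 159 CPM, so the peak at day 3 was seen in the control only. Rgs3 (2.46, SE 0.36) and Cenpf (1.41, SE 0.21) had the same adjusted p by edgeR. Of 53 mitosis genes 24 had an unadjusted p under 0.05, all toward higher at day 3, beside 536 of all 13372 genes, and 0 passed after adjustment. The mitosis median was −0.09 at day 0 and 0.49 at day 3 over 53 genes, and −0.28 at day 5 over the 47 with enough reads. The sarcomere median was −0.58 at day 3 and −0.60 at day 5 over the same 41 genes, and −0.09 at day 0 over the 19 with enough reads. Actc1 had ratios of 0.01, −1.49 and −0.91, and Myog −0.39, −1.23 and −0.23, with adjusted p of 0.745 for each difference by edgeR.

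In the Fkbp4 knockdown 3 genes passed the same edgeR test (0.0224%), all of them pseudogenes. Tax1bp3 had ratios of −0.02, −2.25 and −0.48 at days 0, 3 and 5, a difference of −1.98 (SE 0.25) with an adjusted p of 0.159 by edgeR, and it was called by DESeq2 but not by limma voom. Of 31 cholesterol and fatty acid genes 15 had an unadjusted p under 0.05, all toward higher at day 3, beside 175 of all genes, and 0 passed after adjustment; the list median was −0.08 at day 0, 0.37 at day 3 and −0.13 at day 5.

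Ratios at day 3 also moved with transcript length. Across genes, which are not independent replicates, Spearman's rho between the longest transcript of a gene and its ratio was 0.246 in the Fkbp5 knockdown over 9051 genes and 0.232 in the Fkbp4 knockdown over 9302 genes. In the Fkbp5 knockdown the sign was the opposite at days 0 (−0.331) and 5 (−0.260). The test of day 3 against days 0 and 5 was not adjusted for length, which matters for long transcripts such as Cenpf (11130 bases). The median ratio at day 3 went from −0.11 in the shortest to 0.13 in the longest of 5 equal groups of transcripts in the Fkbp5 knockdown, and from −0.15 to 0.07 in the Fkbp4 knockdown. After subtracting the median of genes of like length, the list medians at day 3 in the Fkbp5 knockdown were −0.54 for sarcomere, 0.47 for mitosis and 0.30 for matrix. The mitosis median adjusted in this way was −0.025 at day 0 and −0.213 at day 5. The long genes Hspg2 (1.02), Aspm (0.98), Col12a1 (0.92), Cenpf (0.88) and Lrp1 (0.86) lost part of their ratio, and Egr1 (−1.82) and Actc1 (−1.43) did not or hardly did. Aspm, Col12a1, Cenpf and Lrp1 were then under 2-fold. In the Fkbp4 knockdown the cholesterol list was then at 0.32.

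**Figure D5:**
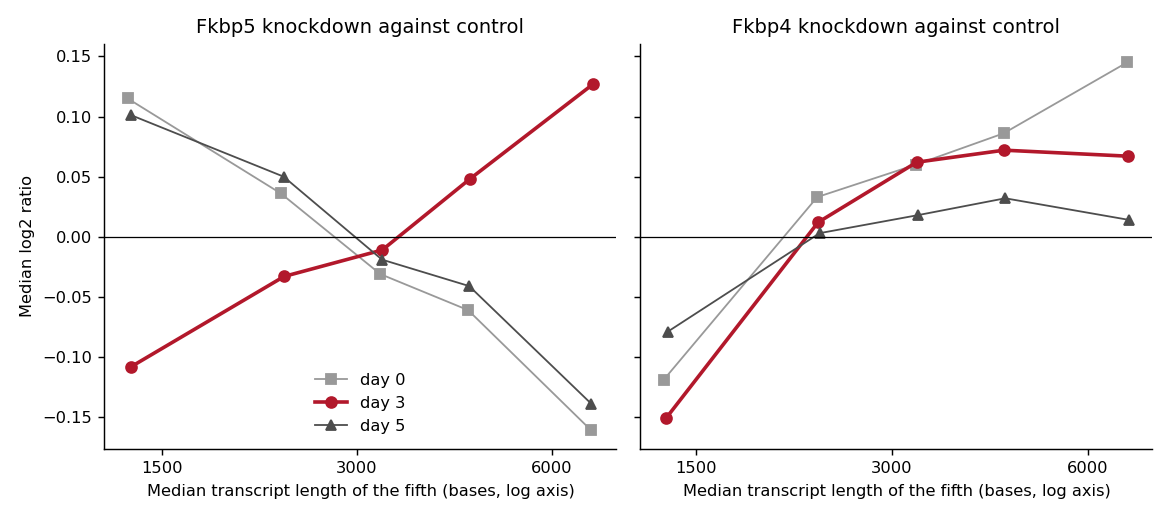
Median log2 ratio of knockdown over control (vertical axis) in 5 equal groups of transcript length (horizontal log axis, bases) at days 0, 3 and 5. In the Fkbp5 knockdown the line for day 3 climbs from −0.11 to 0.13 while those for days 0 and 5 descend.

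Pseudogenes took a large share of the calls, and some called genes had near copies. Of 292 pseudogenes compared in the Fkbp5 knockdown 23 were called higher and 22 lower, and of 329 in the Fkbp4 knockdown 21 and 25. Of 87 protein-coding genes called lower in the Fkbp5 knockdown, 14 shared over 20% of their 31-base words with other genes, and of 82 in the Fkbp4 knockdown 18 did. Of those called higher, 7 of 66 in the Fkbp5 knockdown and 6 of 37 in the Fkbp4 knockdown did. The share among all genes compared was not measured, so no excess can be read from these counts. The glycolytic enzyme Gapdh had 392 reads in control cells and 159 with the Fkbp4 knockdown (−1.72), but with the reads of 12 near copies added the ratio was 0.01. Hmga1 (3.08 alone, 1.96 with its copy) and Eif3j1 (1.75 alone, 1.25 with its copy) stayed above 2-fold in the Fkbp4 knockdown, as Kifc1 did in the Fkbp5 knockdown (1.48 and 1.35), while Erh did not (1.18 and 0.64). Hmgn2 (−1.92 and −3.30 in the Fkbp5 and Fkbp4 knockdowns), Nrbf2 (−1.87 and −2.34) and Rnaset2b (−1.72 and −2.83) share 29.8%, 76.2% and 63.1% of their words. With its copy Rnaset2b was at −1.25 and −1.75. Sumo2 (22.5% shared) was −2.04 in the Fkbp5 knockdown at day 3 but 0.90 and 3.09 at days 0 and 5, so its value is uncertain. Hmgn2 in that knockdown likewise stood above the control at days 0 and 5, so its value at day 3 is uncertain too. The kit does not keep the strand, so reads of a gene and of an overlapping or antisense gene cannot be told apart.

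The lines drawn by the rule were crossed narrowly by some genes. In the Fkbp5 comparison 55 genes had exactly 50 reads in the larger library and 42 had 49, while 47 genes lay between 1 and 1.1 in size on the log2 scale and 70 between 0.9 and 1. In the Fkbp4 comparison the numbers were 40 and 27 genes, and 44 and 59 genes. The whole interval was past 2-fold for 28 higher and 50 lower genes in the Fkbp5 knockdown and for 26 and 56 in the Fkbp4 knockdown.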

How the data were processed

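Polyadenylated RNA of 9 C2C12 libraries was sequenced after a kit that does not keep strand. The deposited table holds whole-number read counts per gene, made by the authors with HISAT2 2.0.2 and featureCounts 1.4.6 on mm10, per the submitters' processing notes. Annotation release, strand setting and handling of reads with several positions are not given in the sources used here. Of 47728 genes, 47309 matched GENCODE mouse release 21.

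Counts were scaled by edgeR 4.0.16 TMM over 9 libraries. Ratios carry exact 95% intervals with a minimum of 50 reads. The difference of day 3 from days 0 and 5 was fitted with edgeR's quasi-likelihood test and Benjamini-Hochberg adjustment, with limma 3.58.1 voom and DESeq2 1.42.0 as alternatives, and checked on simulated data. Other alternatives were read minimum, scaling, genes tested, transcript length, near copies and word holders. Named genes were the fixed genes, the 12 highest and 12 lowest protein-coding genes ranked by the interval bound nearest no difference, up to 4 members of each list past 2-fold (otherwise the 2 most abundant) and called pseudogenes, leaving out ribosomal and predicted genes from the ranks; further list members were named after their values were seen. The libraries, lists and words were chosen with earlier results of these data known. Results for some genes are not reported here.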

Additional observations from a re-analysis of the deposited data

Results flagged for a closer look

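The difference between day 3 and days 0 and 5 passed edgeR's test (Benjamini-Hochberg adjusted p = 0.0425 for each) for 3 pseudogenes in the Fkbp4 knockdown. Rpl31-ps11 had a difference of −6.62 on the log2 scale, with 252 reads in control cells and 46 with the knockdown at day 3 but 8 and 107 at day 0 and 3 and 62 at day 5. Gm13413 had a difference of 7.52, with 7 and 125 reads at day 3, 36 and 5 at day 0 and 39 and 1 at day 5. Rpl31-ps4 had a difference of 10.58, with 67 and 148 reads at day 3, 0 and 0 at day 0 and 217 and 0 at day 5. The last 2 fitted differences involve libraries with 0 or 1 read and depend on the prior count.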

How the results depend on the processing

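No paired analysis was possible because each genotype has 1 library at day 3; in the fit over 9 libraries day was already a term. With at least 10, 20 or 100 reads, the Fkbp5 knockdown had 357, 209 or 47 genes called higher (91 at 50 reads) and 364, 217 or 72 lower (113). The Fkbp4 knockdown had 286, 146 or 34 higher (60) and 342, 205 or 72 lower (114). With the whole interval past 2-fold, the counts higher and lower were 28 and 50 for Fkbp5 and 26 and 56 for Fkbp4. For protein-coding genes alone 37 were higher in the Fkbp4 knockdown. Alternatives chosen after seeing the data tested protein-coding genes only. Adjusted for transcript length, 35 were higher in the Fkbp4 knockdown. Without word holders, 69 were lower in the Fkbp5 knockdown, and 34 higher and 66 lower in the Fkbp4 knockdown. The words were picked by low values of these same ratios, so fewer lower genes without holders tend to follow from that choice. The shares of called protein-coding genes that kept their direction at day 0 also moved with the read minimum. For higher genes in the Fkbp4 knockdown they were 81.5%, 90.9% and 100% (12 genes) at 20, 50 and 100 reads. For lower genes in it they were 77.7%, 86.2% and 90.0%. In the Fkbp5 knockdown they were 71.3%, 66.0% and 56.5% (23 genes) for higher genes, and 78.7%, 88.0% and 84.4% for lower genes. The test of day 3 against days 0 and 5 called 76 genes in the Fkbp5 knockdown without a filter, 3 without the Fkbp5 knockdown library of day 5 and 5 by DESeq2 (0 in the edgeR fit with all libraries). For the Fkbp4 knockdown these were 50, 1 and 5, and 1 by limma voom, against 3. The cause was not tested. Gapdh in the Fkbp4 knockdown reversed to 0.006 with near copies added. Other scalings moved the median of all genes by at most 0.0345.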
